A study of Mus musculus with 9 samples.

Results

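The phagocyte NADPH oxidase and the Hv1 proton channel were followed through 6 genes, Cybb, Cyba, Ncf1, Ncf4, Rac2 and Hvcn1, in FDCPmix cells after knockdown of Gata2 or Pu.1. Every probe whose accession belongs to these genes was taken, which gave 9 of the 41174 probes on the array and 6 of the 16535 genes that could be named. All 9 probes, and so all 6 genes, passed the filter on dim probes. Cybb, Ncf1 and Rac2 have a pair of probes each, and Cyba, Ncf4 and Hvcn1 have 1 each.

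The oxidase is the enzyme by which neutrophils, monocytes and macrophages make superoxide from oxygen, the respiratory burst used to kill microbes. Its catalytic core, gp91phox (encoded by Cybb, also called NOX2) with p22phox (Cyba), sits in the membrane, and on activation it is joined by the cytosolic subunits p47phox (Ncf1) and p40phox (Ncf4), among others, and by the small GTPase RAC2. Electrons leave the cell through the core, and the voltage-gated proton channel Hv1 (Hvcn1) carries protons out to balance their charge. Loss of gp91phox, p22phox, p47phox or p40phox causes forms of chronic granulomatous disease in humans. PU.1 is a myeloid ETS transcription factor, and GATA2 is a zinc finger factor of stem, progenitor and mast cells.

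FDCPmix cells are a cultured mouse line of multipotent blood progenitors. Cells were infected with lentivirus that carried the empty vector (EV), an shRNA (short hairpin RNA) against Gata2 (Gata2 KD) or one against Pu.1 (Pu.1 KD), and after 5 days the viable GFP+ cells were sorted and their total RNA was hybridized to 1-color arrays. There were 3 arrays per group. All groups share the vector, the GFP sort and the parent line, and how many shRNA sequences served each target is not in the labels. Triplicate samples of the line were infected, so the p-values measure the spread between those samples of 1 line.

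Levels are log2 processed intensities minus the 75th percentile on that array, so 0 is the intensity that 75% of probes do not exceed. A change is a difference between group means of these levels, with its standard error (SE), and it is called when limma's p-value, adjusted by Benjamini-Hochberg over 36585 tested probes, is below 0.05. Between 80.44% and 89.57% of spots were well above background on an array, and none was saturated. The 9 arrays lay on 3 slides with 1 array of each group on every slide. EV replicate 3 stood somewhat apart from the rest (mean correlation 0.960, against 0.971 to 0.978 for the remaining 8). Gata2 was lower in Gata2 KD than in EV by both its probes (log2 changes -1.61 and -1.80), and Spi1, which encodes PU.1, was lower in Pu.1 KD (-1.73, adjusted p = 0.00178) and higher in Gata2 KD (1.39, adjusted p = 0.0012). Progenitor markers such as Kit, Cd34 and Myb were well above background on all 9 arrays.

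The promoters of the members held in the RefSeq promoter table are shown first (3 of 6, build GRCm38.p6). The 250 bases before each annotated start are printed 5′ to 3′ on the strand of the gene, and capitals mark AGATAA on either strand, a GATA motif.
Cybb promoter, chrX:9469325-9469574, minus strand: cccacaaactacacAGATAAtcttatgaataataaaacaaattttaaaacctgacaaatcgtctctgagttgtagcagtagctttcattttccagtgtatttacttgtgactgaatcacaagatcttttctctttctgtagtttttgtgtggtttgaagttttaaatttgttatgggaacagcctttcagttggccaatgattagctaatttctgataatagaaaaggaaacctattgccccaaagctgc
Cyba promoter, chr8:122432941-122433190, minus strand: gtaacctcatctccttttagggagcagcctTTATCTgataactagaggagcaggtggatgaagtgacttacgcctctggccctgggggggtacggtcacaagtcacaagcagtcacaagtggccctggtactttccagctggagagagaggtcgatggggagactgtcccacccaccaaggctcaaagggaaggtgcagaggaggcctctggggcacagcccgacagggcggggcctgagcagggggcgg
Ncf1 promoter, chr5:134229626-134229875, minus strand: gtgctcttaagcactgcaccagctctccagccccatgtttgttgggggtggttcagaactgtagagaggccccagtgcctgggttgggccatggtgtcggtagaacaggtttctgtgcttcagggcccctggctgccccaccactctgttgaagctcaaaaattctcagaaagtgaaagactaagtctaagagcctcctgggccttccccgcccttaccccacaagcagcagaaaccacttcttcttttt
Cybb held AGATAA on the strand of the gene, at bases -236 to -231 counted from the start. In Cyba the motif lay on the opposite strand, at bases -220 to -215, and the Ncf1 window held none. Of 32851 mouse promoter windows of this length, 9.99% held AGATAA. Neither GAGGAA, a core bound by PU.1 (23.3% of windows), nor GGAAGTG, an ETS motif (8.55%), occurred on either strand of these 3 windows. The search used only these exact words, so it does not show that a window lacks other GATA, PU.1 or ETS sites. The Cybb and Cyba windows also held TGATAA, unmarked, on the strand of the gene. It is a form of WGATAR, a GATA consensus cited in the paper (W is A or T, R is A or G). In Cyba it shared a base with the marked motif. All 3 windows held the shorter GGAA when both strands were read. Cyba also held GGAAG, which the paper lists as a simple ETS motif, and Ncf1 held it on the opposite strand. How common TGATAA and these shorter words are among promoters was not counted. When the next 50 bases were added, Cybb held GAGGAA on the opposite strand, 9 to 14 bases after the start (28.3% of the longer windows). No match of a searched word overlapped that of another, and all of these are letter matches, not binding sites.

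After Gata2 KD, 4 of the 6 genes rose, none fell, and the 4 were higher than EV on every slide. Hvcn1 rose 5.50-fold, Cyba 2.22-fold, Ncf1 2.14-fold and Ncf4 1.96-fold, while Rac2 was not called. Cybb depended on the probe: 1 rose 17.1-fold and the other did not pass the test. Counted by probe, 6 of 9 were higher in Gata2 KD, against a background of 2.96% of all tested probes called higher (5.20% in either direction). Counted by gene, with each gene represented by its probe of highest mean level, 4 of 6 were higher, against 4.21% of 15808 genes. The Gata2 KD arrays lay above all EV arrays for 6 of 9 probes (7.65% of all probes). The median change was 1.03 over the 6 genes and -0.09 over all genes. The members were chosen with earlier results of these data known. Counts set beside background shares, here and below, therefore describe the members and are not an independent test.

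After Pu.1 KD, Ncf1 fell 4.82-fold by the probe of highest level and 3.47-fold by the other. The Cybb probe that rose after Gata2 KD was also called lower, below the detection limit. That call was lost in 7 of 19 alternatives, described below. The Ncf4 and Hvcn1 arrays overlapped with EV and neither gene was called. By probe, 3 of 9 were lower in Pu.1 KD and none was higher by limma or at an unadjusted p below 0.05, where the background was 1.42% called lower (2.70% in either direction). By gene, 1 of 6 was lower, against 2.16% of all genes. The Pu.1 KD arrays lay below all EV arrays for 6 of 9 probes, the Cyba probe and both Rac2 probes included (9.32% of all probes). The median change was -0.30 over the 6 genes and -0.04 over all genes. The comparisons of each knockdown with EV share the EV arrays.

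Set directly against each other, Gata2 KD was higher than Pu.1 KD for 6 of 9 probes (4.86% of all probes called higher, 9.63% in either direction) and for 4 of 6 genes (6.77% of all genes). All Gata2 KD arrays lay above all Pu.1 KD arrays for 8 of 9 probes (11.8% of all probes). The groups differed by the test for Cyba, Ncf1, Ncf4, Hvcn1 and the responding Cybb probe, and for neither Rac2 probe.

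**Figure D1:**
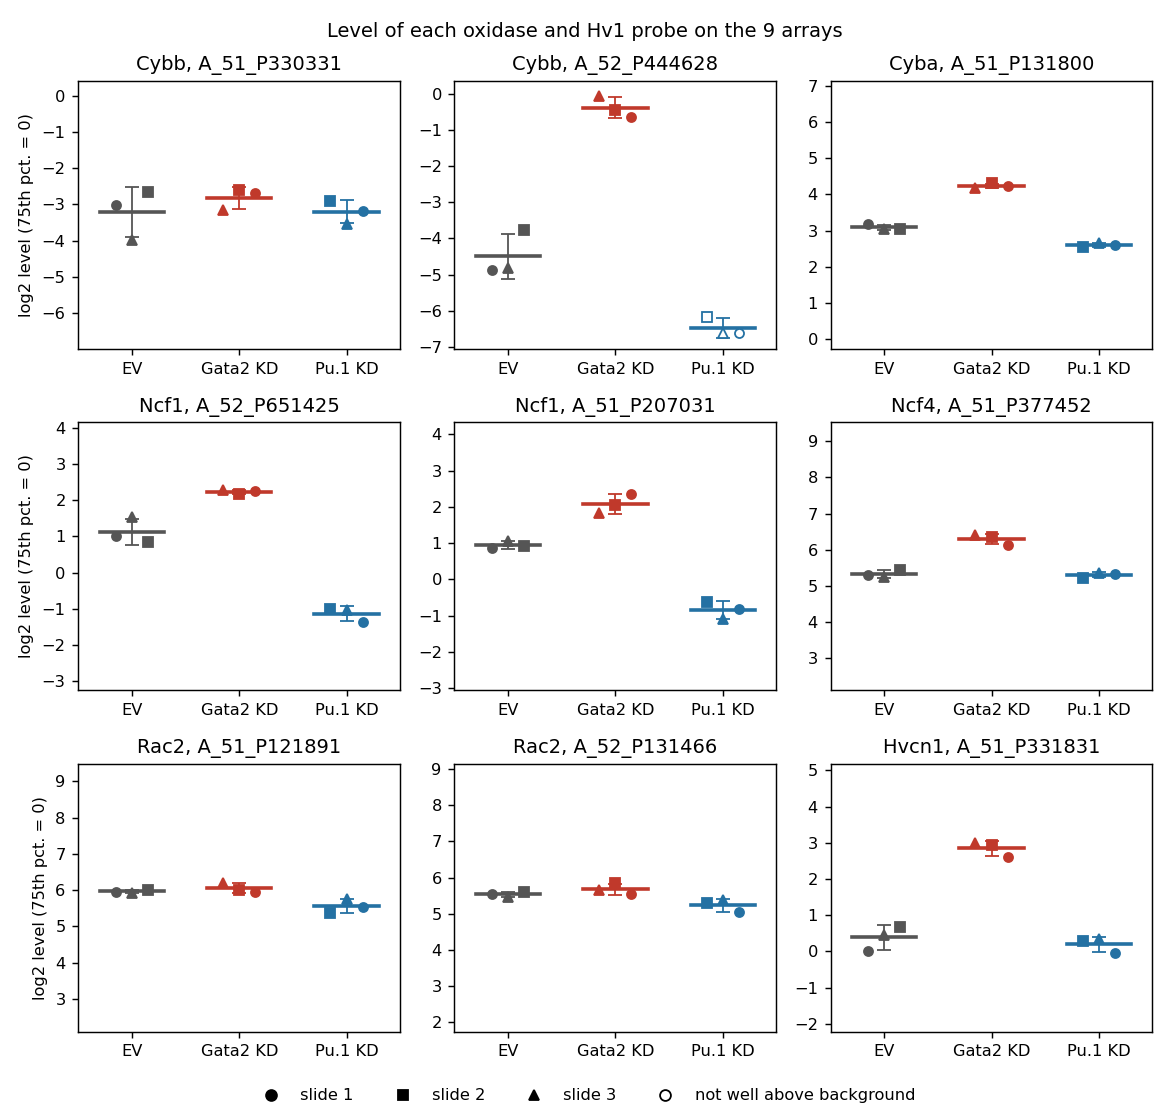
Log2 level (vertical axis, 0 is the 75th percentile of the array) of each of the 9 probes by group (horizontal axis). Points are single arrays with the slide as their shape, thick lines are means and bars are SD (n = 3). All panels span the same number of log2 units, so the separation of Cybb A_52_P444628, Ncf1 and Hvcn1 can be compared with the near level Rac2 panels, and open points mark the 3 Pu.1 KD arrays where Cybb A_52_P444628 was not well above background.

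Cybb, the catalytic subunit, gave results that depend on which of its probes is read. Both carry the same RefSeq accession. Probe A_52_P444628 stood at -4.87, -4.82 and -3.77 on the EV arrays, at -0.08, -0.45 and -0.64 on the Gata2 KD arrays and at -6.17, -6.63 and -6.62 on the Pu.1 KD arrays. The 3 groups did not overlap, with every Gata2 KD array highest and every Pu.1 KD array lowest. Its rise after Gata2 KD was 4.10 (SE 0.31, adjusted p = 0.00015, limma), the 39th highest of 36585 changes, and ranged from 3.32 to 4.75 within the slides. In intensity the EV arrays read 20.1, 17.4 and 35.7 and the Gata2 KD arrays 415, 342 and 348.

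On the Pu.1 KD arrays the same probe read 6.46, 5.03 and 4.91 and was not well above background on any of them, so its decrease has a lower bound. The bound sets the mean of the brighter group against the higher, on each array of the dimmer group, of the probe's own level and the lowest level among probes well above background. By this bound Cybb was at least 3.28-fold lower in Pu.1 KD than in EV (fitted change -1.98, adjusted p = 0.0157) and at least 56.2-fold higher in Gata2 KD than in Pu.1 KD (adjusted p = 8.63e-06). The decrease against EV was not robust: with normexp background correction it was -0.39 (adjusted p = 0.394) and with the deposited log2 values -0.62 (adjusted p = 0.0824), and over 19 alternatives the adjusted p ranged from 0.00584 to 0.394. Leaving out any 1 of the Pu.1 KD arrays also ended the call, with an adjusted p of 0.0546 without replicate 1, 0.0726 without replicate 2 and 0.0755 without replicate 3. The rise after Gata2 KD was called under each of the same alternatives, at 2.49 with normexp and 2.88 with the deposited values. The difference between the knockdowns was also called under each, and was 2.87 with normexp and 3.50 with the deposited values on the log2 scale, both below the bound given above, which holds for the processed signal alone.

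Probe A_51_P330331 of Cybb, which had the higher mean level and therefore stands for the gene in the counts by gene, showed no such pattern. It read -3.01, -3.97 and -2.65 in EV, -3.16, -2.61 and -2.68 in Gata2 KD and -2.90, -3.53 and -3.17 in Pu.1 KD. All 3 groups overlapped, and the EV arrays alone spanned more than the means of the groups did. Its change was 0.39 after Gata2 KD (95% confidence interval -0.39 to 1.18, adjusted p = 0.803) and 0.01 after Pu.1 KD (-0.77 to 0.80, adjusted p = 1). The interval for Gata2 KD leaves out the rise of the other probe. The files give no basis here for choosing between the probes, so each statement on Cybb holds for the probe it names.

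**Figure D2:**
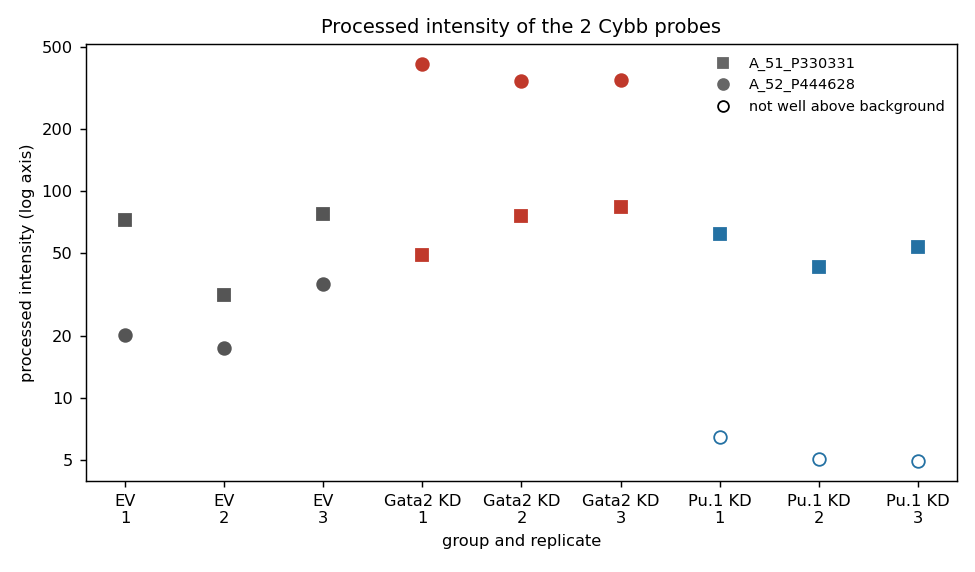
Processed intensity (vertical log axis) of the 2 Cybb probes on each array (horizontal axis, group and replicate); squares are A_51_P330331 and circles are A_52_P444628. The circles rise from between 17.4 and 35.7 in EV to between 342 and 415 in Gata2 KD and drop to 6.46 or less in Pu.1 KD, where open circles were not well above background, while the squares stay in 1 band.

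Cyba encodes p22phox, the membrane partner that stabilizes gp91phox. Its levels were 3.17, 3.05 and 3.05 in EV, 4.18, 4.30 and 4.23 in Gata2 KD and 2.56, 2.65 and 2.61 in Pu.1 KD. The groups were tight and did not overlap, in the order Gata2 KD, EV, Pu.1 KD. The rise after Gata2 KD was 1.15 (SE 0.12, adjusted p = 0.00073), between 1.06 and 1.26 within the slides, and it was called under all 20 alternatives. The change after Pu.1 KD was -0.48 (95% confidence interval -0.75 to -0.21, adjusted p = 0.0826), which missed the threshold although every Pu.1 KD array lay below every EV array. With the slide as a block the same change was called (adjusted p = 0.0433), as it was with trended, robust variances (adjusted p = 0.0143). Gata2 KD exceeded Pu.1 KD by 1.63 (adjusted p = 5.78e-05), or 3.10-fold.

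Ncf1 encodes p47phox, the organizer that is phosphorylated on activation and brings the cytosolic subunits to the membrane. By probe A_52_P651425 it stood at 1.02, 1.53 and 0.84 in EV, at 2.27, 2.16 and 2.26 in Gata2 KD and at -1.01, -1.03 and -1.37 in Pu.1 KD. By probe A_51_P207031 the levels were 0.85, 1.06 and 0.93 in EV, 1.83, 2.06 and 2.36 in Gata2 KD and -0.62, -1.10 and -0.82 in Pu.1 KD. Both probes put the groups in the same order without overlap. Ncf1 was the member whose pair of probes both rose after Gata2 KD and both fell after Pu.1 KD.

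The decrease of Ncf1 after Pu.1 KD was -2.27 by the first probe (SE 0.20, adjusted p = 0.00178), the 42nd lowest of 36585 changes, and -1.79 by the second (SE 0.19, adjusted p = 0.00305). The increase after Gata2 KD was smaller, 1.1 by the first probe (adjusted p = 0.0151) and 1.14 by the second (adjusted p = 0.00908). For the first probe that call was lost in 6 of 20 alternatives, with adjusted p of 0.0602 when EV replicate 1 was dropped, 0.058, 0.0605 and 0.0657 when Gata2 KD replicate 1, 2 or 3 was, 0.0813 with scaling to the median, and 0.0582 when Pu.1 KD was left out of the fit. The second probe kept its call in all 20. Gata2 KD stood above Pu.1 KD by 3.37 and 2.93 (adjusted p = 1.95e-05 and 2.84e-05), that is 10.3-fold and 7.62-fold.

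Ncf4 encodes p40phox, the subunit that binds phosphatidylinositol 3-phosphate on the phagosome. It read 5.30, 5.26 and 5.46 in EV, 6.41, 6.36 and 6.15 in Gata2 KD and 5.23, 5.37 and 5.35 in Pu.1 KD. Every Gata2 KD array lay above all others, and the EV and Pu.1 KD arrays overlapped. The rise after Gata2 KD was 0.97 (SE 0.13, adjusted p = 0.00376). After Pu.1 KD the change was -0.02, with a 95% confidence interval from -0.33 to 0.28 (adjusted p = 1), so a fall as large as that of Ncf1 lay outside the interval. Gata2 KD exceeded Pu.1 KD by 0.99 (adjusted p = 0.00188).

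Rac2 encodes the hematopoietic RAC-type small GTPase of the active complex. Probe A_51_P121891 read 5.96, 5.93 and 6.0 in EV, 6.20, 6.0 and 5.94 in Gata2 KD and 5.37, 5.77 and 5.52 in Pu.1 KD. For probe A_52_P131466 the levels were 5.54, 5.47 and 5.60 in EV, 5.65, 5.84 and 5.54 in Gata2 KD and 5.29, 5.37 and 5.04 in Pu.1 KD. By both probes the EV and Gata2 KD arrays overlapped while the Pu.1 KD arrays lay below them. The changes after Gata2 KD were 0.09 (95% confidence interval -0.25 to 0.42, adjusted p = 0.947) and 0.14 (-0.19 to 0.48, adjusted p = 0.855), so a rise of the size seen for Cyba was outside both intervals.

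After Pu.1 KD the Rac2 changes were -0.41 (adjusted p = 0.266) and -0.30 (adjusted p = 0.484), and neither was called although neither probe's groups overlapped. Gata2 KD against Pu.1 KD gave 0.50 (adjusted p = 0.0806) and 0.44 (adjusted p = 0.117). These differences were called with the slide as a block (adjusted p = 0.0386 and 0.048). The F test over the 3 groups called neither probe (adjusted p = 0.143 and 0.231), nor Cybb A_51_P330331 (0.917), and it called the other 6 (9.01% of all probes).

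Hvcn1 encodes Hv1, the proton channel that compensates the charge moved by the oxidase. Its levels were 0.01, 0.46 and 0.68 in EV, 2.99, 2.93 and 2.61 in Gata2 KD and 0.28, 0.33 and -0.03 in Pu.1 KD. The Gata2 KD arrays stood far above the rest, and Pu.1 KD overlapped with EV. The rise after Gata2 KD was 2.46 (SE 0.21, adjusted p = 0.000287), the 213th highest of 36585 changes, and spanned 2.25 to 2.60 within the slides. The change after Pu.1 KD was -0.19 (95% confidence interval -0.67 to 0.29, adjusted p = 0.918). Hvcn1 was 6.27-fold higher in Gata2 KD than in Pu.1 KD (adjusted p = 1e-04).

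**Figure D3:**
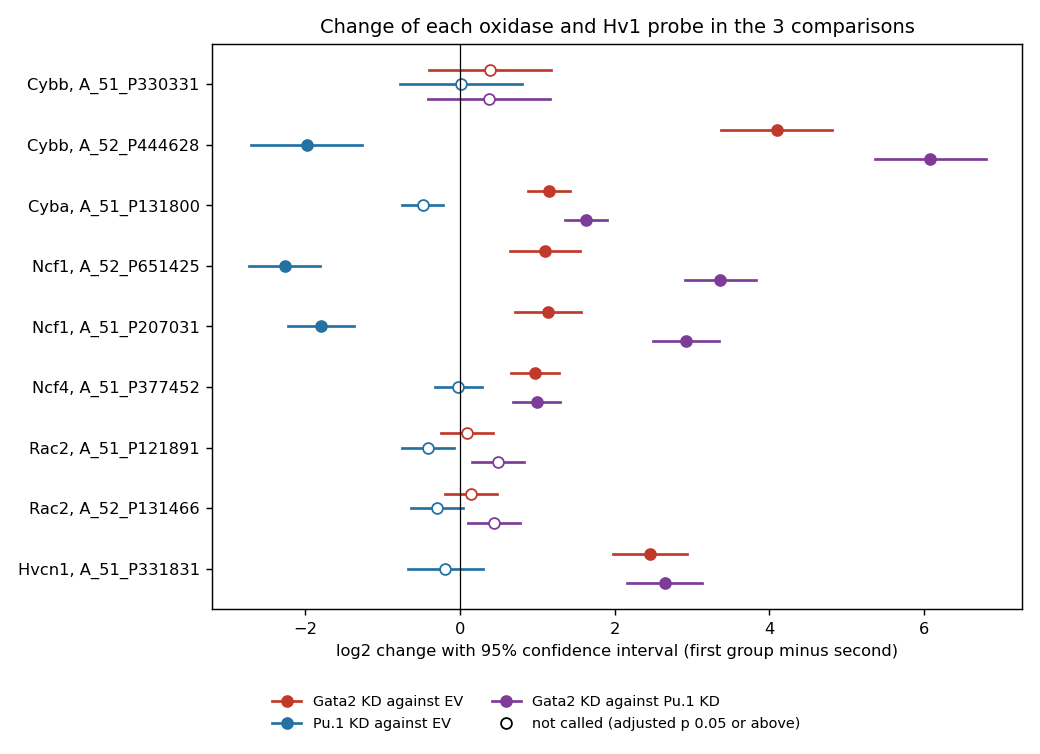
Log2 change (horizontal axis, first group minus second) of each probe (vertical axis) in the 3 comparisons, with 95% confidence intervals from limma; filled points were called and open points were not. All 9 points lie to the right of 0 after Gata2 KD, and the 6 called ones run from 0.97 (Ncf4) to 4.10 (Cybb A_52_P444628), and after Pu.1 KD the called points are the 2 Ncf1 probes and that Cybb probe.

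Some markers of myeloid cells also changed after each knockdown. Over all genes, 4.21% were called higher and 2.95% lower after Gata2 KD, and 1.45% and 2.16% after Pu.1 KD. All 10 neutrophil markers tested, among them Elane and Lcn2, were higher in Gata2 KD than in EV, and 8 of 10 were lower in Pu.1 KD. Their summed linear level, in units of the 75th percentile of the array, was 184 to 202 in EV, 609 to 832 in Gata2 KD and 97.7 to 115 in Pu.1 KD. Of 7 tested monocyte and macrophage markers, 5 were higher in Gata2 KD (1 of them, Mrc1, was above background on 3 arrays in all and passed the filter through the group where it was high), with a sum of 3.69 to 4.24 in EV and 35.8 to 39.6 in Gata2 KD, and 1 (Adgre1) was lower in Pu.1 KD. Of 8 dendritic markers 4 were higher in Gata2 KD and 3 lower in Pu.1 KD, and of 5 eosinophil markers 2 were higher and 2 were lower, respectively.

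Other lineages gave mixed counts. Of 10 mast cell and basophil markers, 6 (such as Fcer1a and Cpa3) fell and 1 (Kit) rose after Gata2 KD, with a sum of 279 to 317 in EV and 65.9 to 80.2 in Gata2 KD. None of 8 B cell markers was called after Gata2 KD by limma (1 higher and 1 lower at an unadjusted p below 0.05), and their sum was 1.99 to 2.81 in EV and 2.19 to 2.56 in Gata2 KD. After Gata2 KD, 3 of 8 erythroid markers fell, 2 of 9 megakaryocyte markers rose and 2 fell, 1 of 6 T cell markers (Thy1) rose, and of 10 progenitor markers 2 (Cd34 and Kit, the latter also in the mast cell list) rose and 3 fell, of which Gata2 was the target of the shRNA. The T cell sum was 10.13 to 13.9 in EV, 21.7 to 27.8 in Gata2 KD and 7.22 to 7.93 in Pu.1 KD. Thy1 had the highest level of the 6 in each group (log2 means 3.16, 4.47 and 2.10). No other T cell marker was called against EV, so the sum mostly follows Thy1 and shows no change of the list. After Pu.1 KD, 2 erythroid, 3 megakaryocyte, 2 mast cell and 1 progenitor marker rose, while 1 B cell marker, 1 T cell marker (Thy1), 2 mast cell markers and 2 progenitor markers (Cd34 among them) fell. The arrays read bulk RNA, in which more cells of a type and more RNA per cell cannot be told apart, and the part of these marker changes in the oxidase results was not tested.

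None of the 8 tested genes for other oxidase subunits and isoforms (of 13 listed) was called against EV by limma. Over all genes, 7.15% were called in either direction after Gata2 KD and 3.61% after Pu.1 KD. At these shares few calls would fall among 8 genes, so their absence says little. At an unadjusted p below 0.05 there was 1, Cybc1, higher after Gata2 KD, and none after Pu.1 KD. Cybc1, a chaperone of gp91phox, changed by 0.41 after Gata2 KD (adjusted p = 0.114) and by 0.11 after Pu.1 KD. The GTPase gene Rap1a changed by -0.38 and -0.46, and Nrros, named as a negative regulator of reactive oxygen species, by 0.33 and 0.01. The median change of the list was -0.09 after Gata2 KD and 0.01 after Pu.1 KD, where all genes had -0.09 and -0.04.

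Of 18 tested genes that act in the activation of the oxidase, 8 were higher and none was lower after Gata2 KD. At an unadjusted p below 0.05 there were 10 and 2. Over all genes, 4.21% were called higher and 2.95% lower. The median change was 0.51 for the list and -0.09 for all genes. The pathway lists, like the members, were chosen with earlier results of these data known. The formyl peptide receptor genes Fpr2 and Fpr1, whose products sense bacterial peptides, rose by 4.07 and 3.10. Prkcb, a protein kinase C that phosphorylates p47phox, rose by 2.62, the Fc receptor gene Fcgr3 by 1.70 and the integrin gene Itgam by 1.59. Pak1, Prkcd and Vav3 were also called. Second probes of Fpr2 (1.36, adjusted p = 0.127), Prkcb (0.24), Prkcd (1.27) and Vav3 (-0.11) were not called, while those of Fcgr3 (1.5) and Pak1 (0.93) were. After Pu.1 KD, 2 of the 18 fell, Fcgr3 by 2.71 (adjusted p = 0.000121, limma) and Fpr2 by 0.84 (adjusted p = 0.0353), and none rose. Over all genes, 2.16% were called lower. The second Fpr2 probe changed by 0.14 (adjusted p = 1), and Itgam changed by -0.79 without a call.

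Of 17 tested genes for oxidant handling and NADPH supply, 2 rose after Gata2 KD and none fell (4 and 3 at an unadjusted p below 0.05). Over all genes, 4.21% were called higher and 2.95% lower. Mpo, the granule enzyme that turns hydrogen peroxide into hypochlorous acid, rose by 3.08, and Prdx5, a peroxiredoxin, by 1.31. Hmox1 changed by 1.11 without a call. After Pu.1 KD, 2 fell, Mpo by 2.81 and the glutathione peroxidase gene Gpx1 by 2.60 (adjusted p = 0.000213, limma), and Sod3 changed by -0.47 without a call. The share of all genes called lower was 2.16%. The median change of the list was -0.14 after Gata2 KD and -0.12 after Pu.1 KD, so the list as a whole did not shift as its called genes did.

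**Figure D4:**
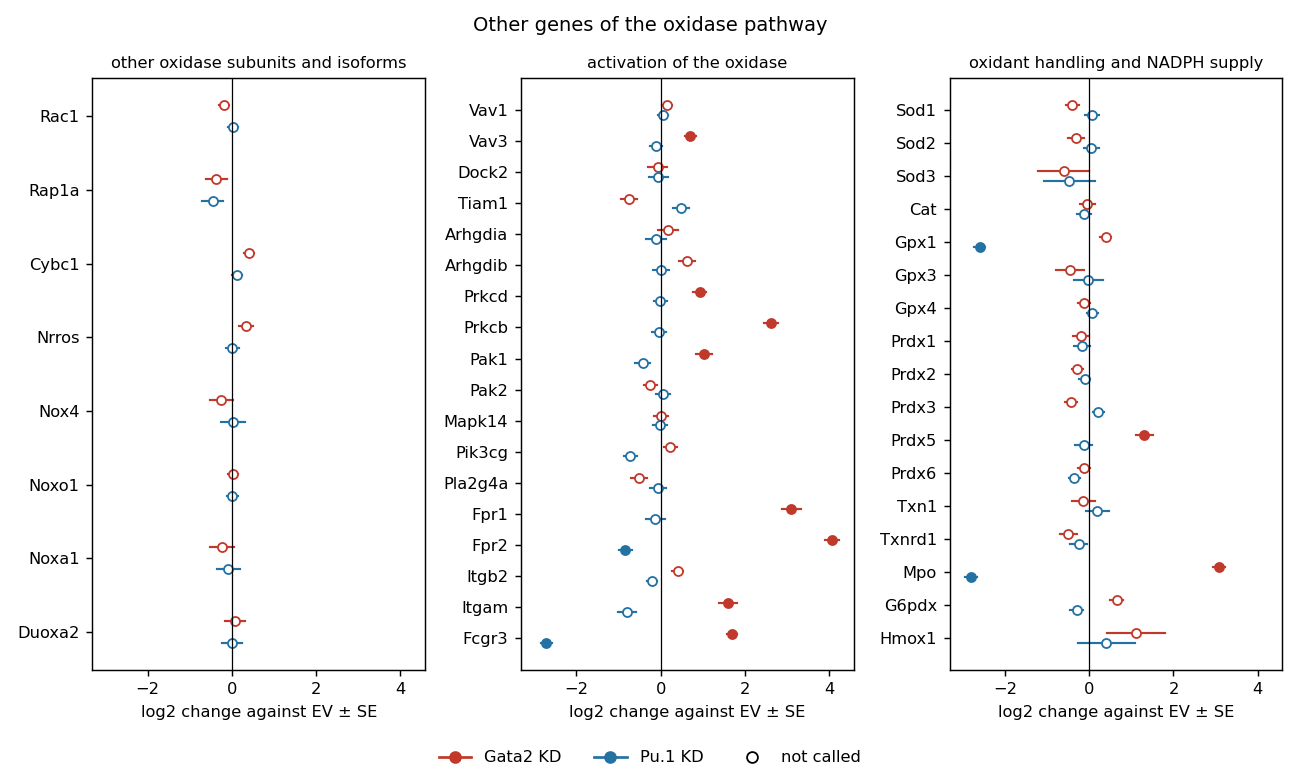
Log2 change against EV (horizontal axis, bars are SE) of other tested genes of the oxidase pathway (vertical axis) in 3 lists, red for Gata2 KD and blue for Pu.1 KD; filled points were called. The called points are 8 activation genes and 2 oxidant handling genes to the right after Gata2 KD, and Fcgr3, Fpr2, Mpo and Gpx1 to the left after Pu.1 KD.

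Likeness to each member was measured as the root mean square difference between log2 levels, each centred on its mean over the 9 arrays, among 14459 named genes above background on every array. Nearest to Hvcn1 were Prkcb (0.17), Gbp3 (0.18) and Serpinb10 (0.19), where the median gene lay at 1.29. Nearest to Ncf1 by its probe of highest level were Lst1 (0.25), Siglecf (0.26) and Rnase6 (0.29), with a median of 1.47. Cyba was followed most closely by N4bp3 (0.066), Sun2 (0.092) and Snx20 (0.094), and Ncf4 by Tiam2 (0.067), Ptpn1 (0.097) and Cytip (0.10). Nearest to Rac2 were Supt4a (0.055), Tmsb4x (0.066) and Sptlc2 (0.073), and to Cybb A_51_P330331 Pag1 (0.13), C1qa (0.14) and Gpat3 (0.15). The median gene lay at 0.40 and 0.47 from these 2 profiles, which had little spread.

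Spi1 itself, looked up after the values were seen, was the 1st of the 14459 genes in likeness to Ncf1 by probe A_51_P207031 (0.21) and the 6th by probe A_52_P651425 (0.32). Its distance was 0.66 to Cyba (rank 2872), 0.72 to Hvcn1 (rank 328) and 0.94 to Ncf4 (rank 13870). The levels were centred but not scaled, so distance and rank depend on the size of changes as well as their pattern. Cyba had the same group order as Spi1, yet Spi1 ranked nearer to Hvcn1, which changed by -0.19 after Pu.1 KD. Spi1 ranked 14209 and 14220 for the Rac2 probes and 14239 for Cybb A_51_P330331, near the end of the list. These are descriptions of the 9 arrays, and no likeness is given for Cybb A_52_P444628, which had only an upper limit on the Pu.1 KD arrays.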

How the data were processed

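Per the labels, total RNA (150 ng) was labeled with Cy3 for Agilent 4x44K arrays. The authors deposited Feature Extraction 10.1.1.1 output of 9 arrays, whose intensity values were background-subtracted within the array and not normalized between arrays. The deposited table of log2 values followed the log2 median signal (correlation 0.997 or more), its exact normalization is not given in the sources used here, and it served as an alternative.

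Levels were log2 processed signal minus the array's 75th percentile, after control and outlier-flagged spots (47 to 96 per array) were dropped and the spots of a probe averaged. Probes well above background on at least 3 arrays with 2 or more values per group were tested with limma's moderated test (version 3.58.1, R 4.3.3; a group-means model of the 9 arrays, two-sided, Benjamini-Hochberg over 36585 probes). Accessions were matched to RefSeq genes of GRCm38.p6 (23374 of 41174 probes named), and the promoters are from RefSeq. The model fit was tested on simulated data. The number of arrays limits the precision, and changes of dim probes depend on background correction. Normexp (offset 50) used the median signal, because a mean signal column was not used here.

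Named were all member probes, Gata2 and Spi1, and, per pathway list and comparison against EV, up to 5 called genes of largest change (the 3 largest changes where fewer than 3 were called), the 3 genes most like each member, and up to 3 examples per marker list. Pak1, Prkcd, Vav3, Nrros and the second probes were named after their values were seen. Some items that the rule picks are not reported here and were left out of the lists. The members and lists were chosen with earlier results of these data known. The alternatives were the replicate number or the slide as a block, normexp, quantile normalization, scaling to the median, other filters on dim probes, flagged spots kept, trended and robust variances, the deposited values, only the groups compared, and each array left out.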

Additional observations from a re-analysis of the deposited data

How the results depend on the processing

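Of 537 changes of member probes recomputed under the alternatives, 508 kept their direction and side of the threshold, 13 lost a call, 8 gained one and 8 changed sign without a call on either side. The 8 lay near 0 after Pu.1 KD: Cybb A_51_P330331 went from 0.01 to -0.37 without EV replicate 2, -0.14 without Pu.1 KD replicate 1 and -0.0022 without Pu.1 KD replicate 3 (range -0.37 to 0.29 with an array left out), and Ncf4 went from -0.02 to 0.038 with quantile normalization, 0.015 with scaling to the median, 0.013 with the deposited values, 0.037 without EV replicate 3 and 0.020 without Pu.1 KD replicate 1 (range -0.063 to 0.037 with an array left out). Leaving out 1 array at a time gave 3 to 4 of 6 members called after Gata2 KD, where Ncf1 was the member lost. The gene-level change of Cybb after Pu.1 KD reversed from 0.01 to -1.98 when its other probe was used. The probes called after Gata2 KD, 1902 (1084 higher and 818 lower), numbered 1203 with scaling to the median (839 higher and 364 lower), 2886 with the slide as a block, 1114 with only the compared groups and 1072 to 1698 with an array left out (1072 without Gata2 KD replicate 2 and 1211 without replicate 3). After Pu.1 KD, 986 probes were called, against 1875 with the slide as a block, 377 with scaling to the median, 1575 with trended and robust variances, 1785 with the deposited values, 223 with only the compared groups and 280 (without Pu.1 KD replicate 1) to 824 with an array left out. The 3524 probes called between the knockdowns became 2259 with scaling to the median and 2206 to 3931 with an array left out (2206 without Gata2 KD replicate 2). Other pathway genes called after Gata2 KD went from 10 to 17 with trended and robust variances and 19 with the deposited values, and after Pu.1 KD from 4 to 7 with the slide as a block. Members called after Pu.1 KD went from 1 to 2 with the slide as a block and with trended and robust variances. The causes were not tested.

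Replicate numbers did not pair the arrays: deviations of same-numbered arrays correlated above 0.1 in 4 of 9 pairs (-0.55 to 0.65), against 8 of 9 pairs for the slide (-0.04 to 0.72). With the replicate block 1172 probes were called after Gata2 KD and 234 after Pu.1 KD, 4 members stayed called after Gata2 KD, and Cybb A_52_P444628 was not called after Pu.1 KD (adjusted p = 0.0637). With 3 arrays a group and the slide left out of the main fit, Cyba after Pu.1 KD and Rac2 between the knockdowns missed the threshold. Limma with the slide as a block called them (adjusted p = 0.0433 for Cyba, 0.0386 and 0.048 for Rac2). Cybb A_52_P444628 cannot be measured below its background.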
